A study of Bos taurus with 6 samples.

Results

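The chemokine and chemokine receptor genes of bovine intramuscular fat (IMF) were compared between steers and bulls. A gene of the mRNA count table belonged to this set if its symbol was CCL, CXCL, CCR, CXCR, ACKR, XCL or XCR followed by a number, or was CX3CL1, CX3CR1, PF4, PPBP, IL8 or CCRL2. The rule found 53 of the 25444 genes of the table, 34 ligands and 19 receptors. IMF was dissected from the sternomandibularis muscle of Chinese Qinchuan males at 24 months of age. The males had 1 sire in common by the study's methods. They had been weaned at 3 months and were fed alike. Steers had been castrated by surgery at 6 months and bulls were left intact. RNA was pooled within each group, from 6 animals according to the series' design text and from 3 according to the sample labels, so each group is 1 library and no value for a single animal exists.

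Chemokines are small secreted proteins that draw leukocytes along a concentration gradient and hold them in a tissue. Their receptors are G protein-coupled receptors of the leukocyte surface, which signal through inhibitory G proteins to phosphoinositide 3-kinase, small GTPases and the actin skeleton. Inflammatory chemokines are induced in activated macrophages, T cells and stromal cells, whereas homeostatic chemokines are made steadily by fibroblasts, endothelium and lymphoid stroma. Atypical receptors bind chemokines without starting the usual migration signal. In adipose tissue, chemokines are best known for the recruitment of monocytes and T cells.

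The table held 12677375 counts for steers and 9868415 for bulls, so a raw count in bulls stood against a shallower library. Folds were taken after scaling with median-of-ratios size factors, which were 1.04 for steers and 0.959 for bulls. Counts are the reads assigned to a gene, and the log2 ratio is the log2 fold change of steers over bulls. A gene was called when an exact binomial test on its pair of counts gave an adjusted p under 0.05 and the log2 ratio exceeded 1 in size. This test compares the 2 libraries and not the conditions, since no replicate exists. The interval after each log2 ratio is its 95% Clopper-Pearson interval and covers counting error only. Counts are not divided by gene length and are therefore not compared between genes.

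Of the genes with a read, 12 of 18 receptors, all 3 interferon-induced ligands and 5 of 10 inflammatory CC ligands were called lower in steers. No homeostatic ligand was called lower, except CCL21 when libraries were scaled by total counts. Each gene was given 1 role from general knowledge of the family, and the counts by role depend on that choice. Of the 53 genes, 8 had no read in either library, namely IL8, CXCL17, PPBP, CCL1, CCR9, XCL1, CCL28 and CCL20. A further 12 had between 1 and 9 reads over both libraries, and 33 had at least 10. Among the 45 genes with a read, 21 were called lower and 3 were called higher in steers. Over all 17752 genes tested, 8.13% were called lower and 4.37% were called higher, or 11.3% and 3.04% when libraries were scaled by total counts. The 9 ligands called lower were a minority of the 27 ligands with a read. No receptor was called higher. The median log2 ratio of the 45 genes was -1.71 with a prior of 0.5 counts and -0.79 with a count of 0 set at its bound, and over all genes tested it was 0.01 and 0. The whole set took a similar share of both libraries, 0.136% in steers against 0.152% in bulls. Homeostatic ligands held 13369 of its 17297 reads in steers and 7942 of 14976 in bulls.

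**Figure D1:**
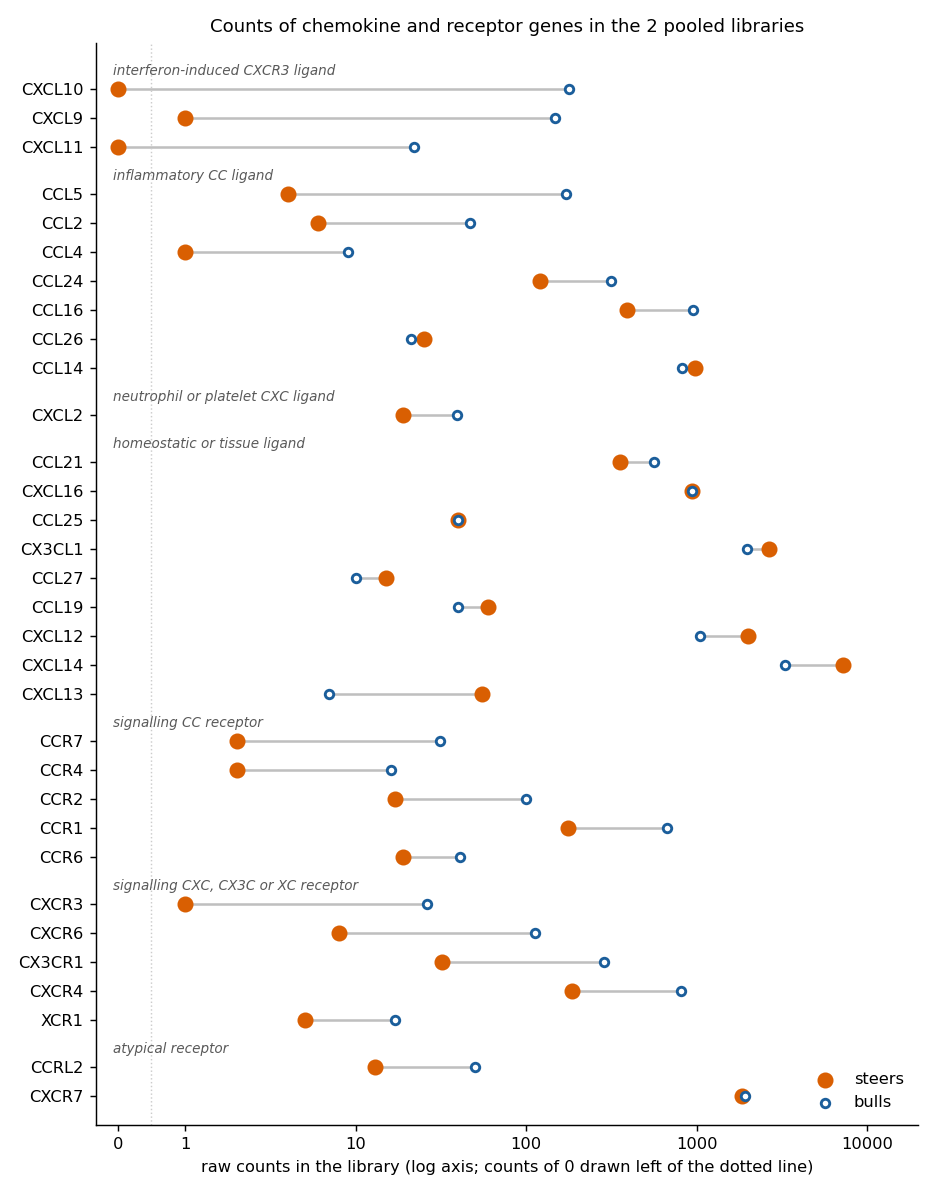
Raw counts (log axis) of 32 chemokine and receptor genes with at least 10 reads over both libraries, with a filled point for the steers' library and an open point for the bulls' library. Signalling receptors and interferon-induced ligands lie to the left in steers, while CXCL16, CCL25 and CXCR7 nearly coincide.

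CXCL9, CXCL10 and CXCL11 are induced by interferon gamma and attract activated T cells and natural killer cells through CXCR3. All 3 were almost without reads in steers. CXCL10 had 0 reads in steers and 177 in bulls, which is 64.2-fold lower with the 0 set at a floor of 3 counts. The floor puts its log2 ratio at -6.00, and the upper limit of the 95% interval was -5.69. CXCL9 had 1 count in steers and 147 in bulls. Its log2 ratio was -7.32, with a wide interval from -12.64 to -4.82 because of the single read. CXCL11 had 0 and 22 reads and was 7.98-fold lower in steers against that floor. This is a log2 ratio of -3.00, with an upper limit of -2.58. Together these ligands held 1 count in steers and 346 in bulls. Their receptor CXCR3 was at 1 and 26 reads, a log2 ratio of -4.82 (-10.18 to -2.22). The adjusted p of CXCR3 in the exact binomial test was 9.28e-07.

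Of the 10 inflammatory CC ligands, all of which had a read, 5 were called lower and 0 higher. Among all genes tested, 8.13% were called lower and 4.37% higher. CCL5, which T cells and natural killer cells secrete, had 4 reads in steers and 170 in bulls. Its log2 ratio was -5.53 (-7.42 to -4.15). CCL2, the main attractant of monocytes, had 6 and 47 reads and a log2 ratio of -3.09 (-4.61 to -1.86). CCL4, an attractant of monocytes and T cells, was at 1 and 9 reads and its interval reached from -8.75 to -0.44. These 3 ligands were scarce in steers.

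Other CC ligands kept more reads in both libraries and differed less. CCL16 had 391 reads in steers and 951 in bulls, a log2 ratio of -1.40 (-1.58 to -1.23). CCL24, an eosinophil attractant that acts through CCR3 and is made by macrophages, had 121 and 315 reads and a log2 ratio of -1.50 (-1.82 to -1.20). CCL14 was not called, with 975 reads in steers and 815 in bulls, at a log2 ratio of 0.14 (0.00 to 0.27). CCL26, like CCL24 a ligand of CCR3, was also not called at 25 and 21 reads, and its interval reached from -0.77 to 1.04. CCL3 had 1 and 4 reads, CCL8 had 0 and 4 and CCL11 had 1 and 0, numbers at which a difference was not detectable.

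Ligands of neutrophils and platelets were scarce. IL8, the prototype neutrophil attractant, and the platelet ligand PPBP had no read. PF4, also of platelets, had 1 and 0, and CXCL6 had 2 in steers and 1 in bulls. CXCL2 was called, with 19 reads in steers, 39 in bulls and a log2 ratio of -1.16 (-2.03 to -0.33). CXCR2, the neutrophil receptor for IL8 and CXCL2, had 0 and 3 reads. Of the 5 neutrophil marker genes in the table, 2 were called higher and 0 lower in steers, against 4.37% and 8.13% of all genes tested. S100A9 had 149 reads in steers and 29 in bulls and S100A8 had 95 and 8. S100A12 had 20 and 30, CSF3R had 6 and 13 and MPO had 9 and 7, and none of them was called.

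CCL17 and CCL22 are made by dendritic cells and macrophages and bind CCR4 on regulatory and helper T cells. CCL22 had 8 reads in steers and 0 in bulls and was called higher, at 2.45-fold against the floor. This is a log2 ratio of 1.29, and the lower limit of its interval was 0.65, below the threshold of 1. CCL22 was left out where at least 10 reads were required. CCL17 had 0 and 3 reads. CCR4 itself was lower in steers, with 2 and 16 reads and a log2 ratio of -3.12 (-6.29 to -1.03).

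As scaled here, none of the 11 homeostatic or tissue ligands was called lower, and 2 of the 9 with a read were called higher. Of all genes with at least 10 reads, 9.59% were called lower and 5.1% higher, so 0 lower among 9 is near that share. CXCL14, which fibroblasts and epithelia express, had 7243 reads in steers and 3310 in bulls. Its log2 ratio of 1.01 (0.95 to 1.07) lay at the threshold, and it was 0.77 with total counts and 0.99 with TMM factors, neither of them past the threshold. CXCL12, the stromal ligand that retains leukocytes through CXCR4, had 2009 and 1047 reads. Its log2 ratio of 0.82 (0.71 to 0.93) lay below the threshold, with an interval wholly above 0. The 7 fibroblast markers had a median log2 ratio of 0.93. COL3A1 at 1.27 and COL1A1 at 1.00, just past the threshold, were called higher and the other 5 were not. Among these, COL1A2 was at 0.93, DCN at 0.04 and PDGFRA at -0.48 (-0.57 to -0.40), the last 2 named after their values were seen. The part of fibroblast content in the values of CXCL12 and CXCL14 was not tested.

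CXCL13 showed the largest rise among the genes with reads in both libraries. This ligand guides B cells into lymphoid follicles through CXCR5, and it had 55 reads in steers and 7 in bulls. The log2 ratio was 2.85 (1.71 to 4.23), with an adjusted p of 1.4e-08 in the exact binomial test. CXCR5 had 0 reads in steers and 1 in bulls. B cell markers did not rise with CXCL13. MS4A1 and CD79B had no read in either library, and the 9 B cell genes in the table summed to 46 reads in steers and 134 in bulls. Of them 2, CD22 and FCER2, were called lower and are named here after their values were seen. Among all genes tested, 8.13% were called lower.

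The remaining homeostatic ligands were not called. CX3CL1, a membrane-bound ligand of endothelium that can be shed, had 2656 reads in steers and 1984 in bulls, a log2 ratio of 0.30 (0.21 to 0.38). CXCL16, which is also anchored in the membrane, had 938 and 943 reads and a log2 ratio of -0.13 (-0.26 to 0.00). The endothelial markers ranged from -0.66 to 0.16, with a median log2 ratio of -0.14 and 0 of 8 genes called. CXCL16 lay within that range and CX3CL1 above it. Of all genes with at least 10 reads, 9.59% were called lower and 5.1% higher, so 0 of 8 called says little. CCL21, made by lymphatic endothelium, had 353 and 561 reads and a log2 ratio of -0.79 (-0.99 to -0.60). Scaling by total counts moved CCL21 to -1.03, past the threshold. CCL19, the other ligand of CCR7, had 60 and 40 reads and an interval from -0.14 to 1.08. CCL25 was at 40 counts in both libraries and CCL27 at 15 and 10, with intervals from -0.79 to 0.55 and from -0.79 to 1.78.

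Of the 17 signalling receptors in the table, 16 had a read and 11 of these were called lower in steers, with 0 called higher. The 11 were also those with at least 10 reads over both libraries, where 9.59% of all genes were called lower and 5.1% higher. Some of them, such as CXCR3 and CCR7, reached 10 reads only through the bulls' library, so this count lends no support of its own. Summed over the 17, the counts were 516 in steers and 2333 in bulls, a log2 ratio of -2.30 (-2.44 to -2.16). In bulk RNA, fewer leukocytes and less receptor mRNA per leukocyte cannot be told apart.

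Among CC receptors, CCR1 had the most reads, 175 in steers and 668 in bulls. CCR1 binds CCL5 and related ligands on monocytes and macrophages, and its log2 ratio was -2.05 (-2.30 to -1.81). CCR2, the receptor by which monocytes follow CCL2, had 17 and 99 reads and a log2 ratio of -2.66 (-3.50 to -1.91). The intervals of these receptors overlap.

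CCR7, which brings naive T cells and mature dendritic cells to lymph nodes, had 2 reads in steers and 31 in bulls, at a log2 ratio of -4.08 (-7.18 to -2.10). CCR6, the receptor for CCL20, differed least of the called receptors. It had 19 and 41 reads and a log2 ratio of -1.23 (-2.10 to -0.41), while CCL20 had no read. CCR3 had 0 and 3 reads, CCR8 had 1 and 1, CCR10 had 1 and 0 and CCR9 had none, so differences in these receptors were not detectable at this depth.

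Of the 7 signalling receptors of the CXC, CX3C and XC classes, 5 were called lower in steers, against 8.13% of all genes tested. CXCR2 and CXCR5 were not, with at most 3 reads each. CXCR4, the receptor for CXCL12 on nearly every leukocyte, had 186 reads in steers and 812 in bulls. Its log2 ratio was -2.25 (-2.49 to -2.02). CX3CR1, carried by patrolling monocytes, tissue macrophages and cytotoxic lymphocytes, had 32 and 286 reads and a log2 ratio of -3.28 (-3.86 to -2.75). The interval of CX3CR1 lay wholly below that of CXCR4. CXCR6, found on tissue-resident T cells and natural killer T cells, had 8 and 113 reads and a log2 ratio of -3.94 (-5.19 to -2.91). XCR1, which marks cross-presenting dendritic cells, had 5 and 17 reads and a log2 ratio of -1.89 (-3.68 to -0.39).

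The atypical receptors did not move together. CCRL2, which macrophages and other activated cells use to concentrate chemerin at their surface, had 13 reads in steers and 50 in bulls. Its log2 ratio was -2.07 (-3.07 to -1.16). CXCR7, now named ACKR3, is a scavenger of CXCL12 on endothelium and stroma, and it had 1843 and 1926 reads. It was not called, with a log2 ratio of -0.19 (-0.28 to -0.09). The table listed 3 further scavenger receptors under older symbols that the rule did not reach. DARC (ACKR1) had 275 and 214 reads, CCBP2 (ACKR2) 214 and 255 and CCRL1 (ACKR4) 262 and 291, and none of them was called. Over all 9 chemokine-related genes of a list outside the rule, 2 were called lower and 0 higher, with a median of -0.36. Among all genes with at least 10 reads, 9.59% were called lower and 5.1% higher. The 2 called genes of the list were LOC508666 and CMKLR1, the chemerin receptor, which had 150 and 289 reads.

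**Figure D2:**
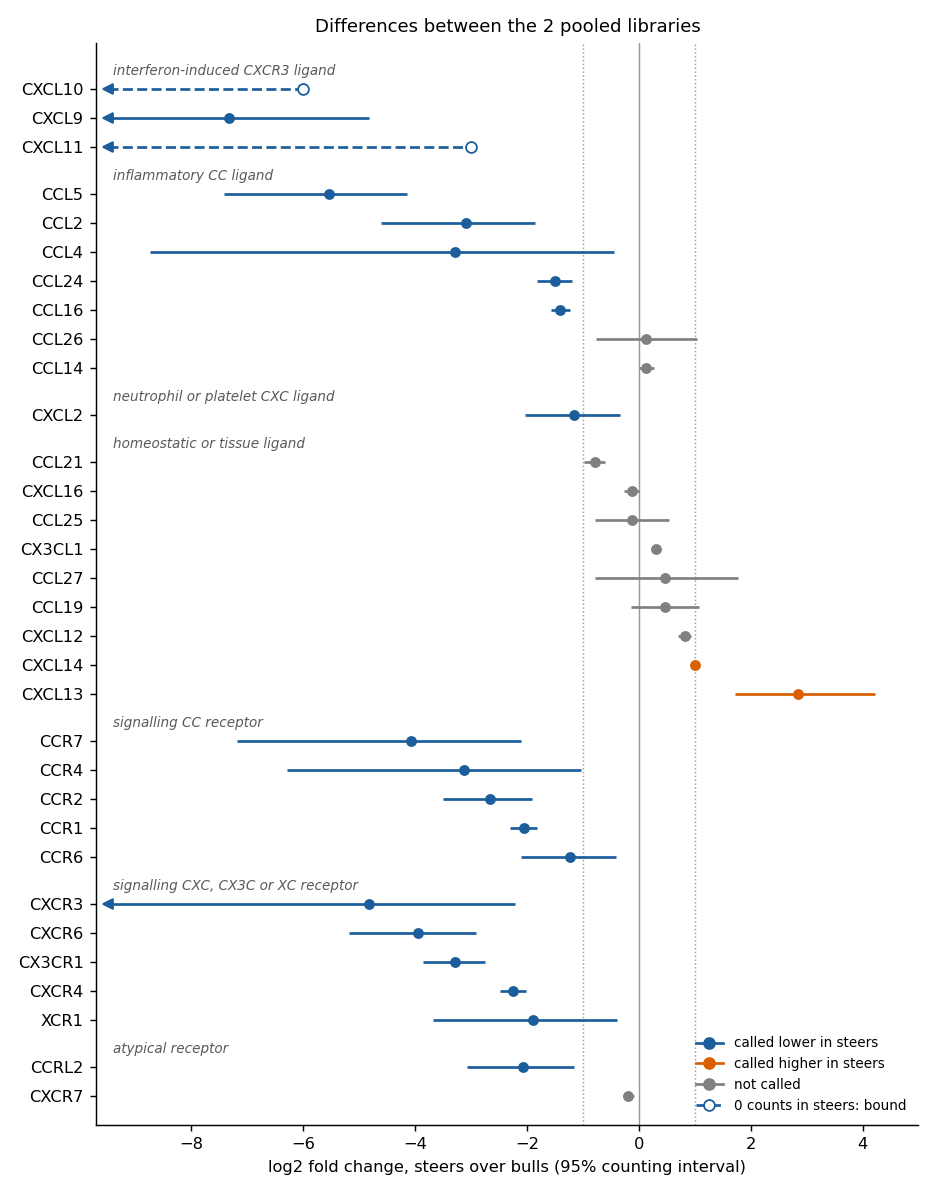
Log2 fold change of steers over bulls for 32 genes with at least 10 reads, grouped by role, with 95% counting intervals. Open points with dashed lines are bounds for genes at 0 reads in steers, arrows mark intervals that run off the axis, and dotted lines mark the threshold of 1. The signalling receptors drawn all lie left of -1, and CXCL13 and CXCL14 lie right of 1.

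Ligands and receptors that bind each other were set side by side, with partners taken from general knowledge of the family. The chosen partners share the same 2 libraries, so their values are not independent. For CXCR3, for CCR1 with CCL5, and for CCR2 with CCL2, ligand and receptor were both called lower in steers. For CXCR6, CX3CR1, CXCR4 and CCR7 the receptor was called lower while no ligand was. CXCL16 stood at -0.13 against -3.94 for CXCR6, and CX3CL1 at 0.30 against -3.28 for CX3CR1. CXCL12 stood at 0.82, its signalling receptor CXCR4 at -2.25 and its scavenger CXCR7 at -0.19. The intervals of ligand and receptor do not overlap in these pairs.

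**Figure D3:**
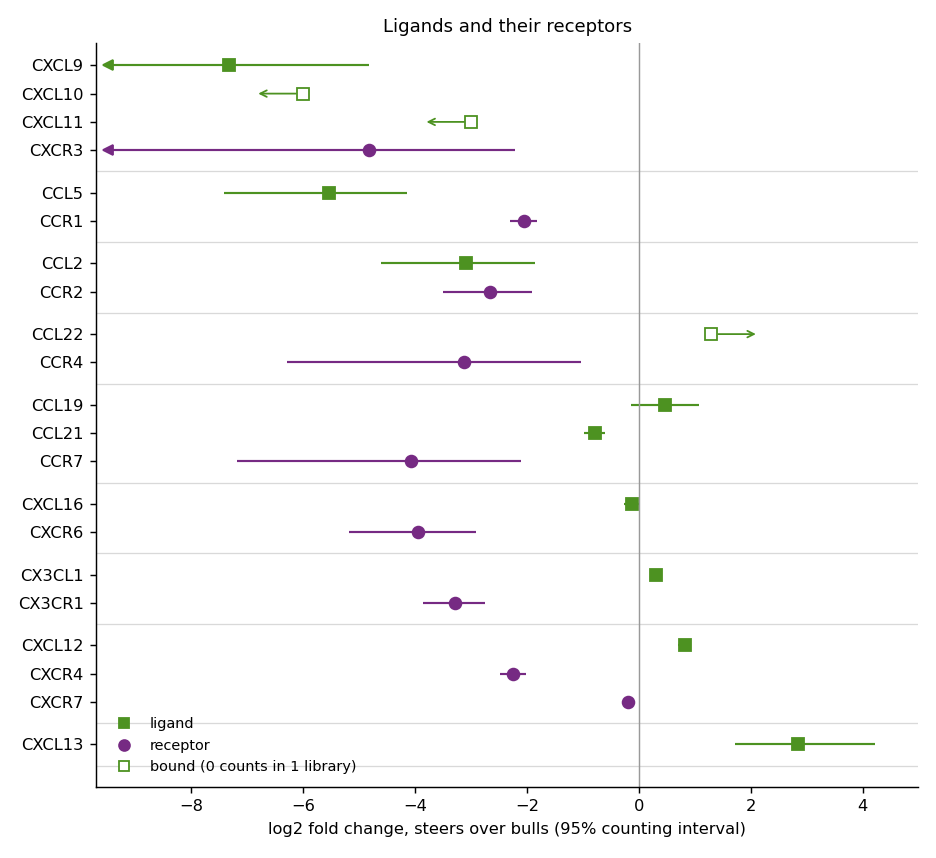
Log2 fold change of steers over bulls for ligands (squares) and their receptors (circles), with 95% counting intervals and grey lines between partner groups. Open symbols are bounds where 1 library had 0 counts, and genes with at most 3 reads in 1 library and 0 in the other are left out. The receptors CXCR6, CX3CR1, CXCR4 and CCR7 lie far left of the ligands CXCL16, CX3CL1, CXCL12, CCL19 and CCL21.

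Many of these genes are neighbours in the genome. By the gene order of the RefSeq table for assembly ARS-UCD2.0, CCRL2, CCR2, CCR3, CCR1, XCR1, CXCR6 and CCR9 lie in 1 run, where adjacent members of a run have at most 2 other protein-coding genes between them. CCRL2, CCR2, CCR1, XCR1 and CXCR6 were called lower in steers, while CCR3 and CCR9 had at most 3 reads. CXCL9, CXCL10 and CXCL11 also form a run, and all 3 were called lower. In the run of CCL14, CCL16 and CCL5, both CCL16 and CCL5 were called lower and CCL14 was not. CCL22, CX3CL1 and CCL17 are neighbours as well, of which CCL22 alone was called, in the opposite direction. Neighbours therefore did not always move together.

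The genes next to CCL14 are 2 more chemokines in the study's annotation, LOC508666 (CCL23) and LOC504773 (regakine-1), which the rule did not reach. LOC508666 had 1249 reads in steers and 3300 in bulls, a log2 ratio of -1.52 (-1.62 to -1.43). LOC504773, chosen after its values were seen, had 1878 and 4068 reads and a log2 ratio of -1.24 (-1.32 to -1.16). Both were called lower. How the authors assigned reads that match several of these related genes is not given in the sources used here, so the split between neighbours is uncertain. The same holds for CCL3 and CCL4.

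Downstream of the receptors, 32 of 34 listed genes of signal transduction were in the table. Of these, 14 were called lower in steers and 0 higher, with a median log2 ratio of -0.64. Over all genes with at least 10 reads, 9.59% were called lower and 5.1% higher. The 3 listed genes with the most counts are used by nearly every cell and were not called. GNAI2, the inhibitory G protein subunit, was at -0.01, GNB1 at 0.34 and RHOA at 0.11. Forms restricted to blood cells were among the genes called lower. RAC2, the leukocyte form of the small GTPase RAC1, had 192 reads in steers and 804 in bulls, at a log2 ratio of -2.19 (-2.42 to -1.96), whereas RAC1 itself was at 0.02 (-0.07 to 0.11). PIK3CG and PIK3CD, the leukocyte catalytic subunits of phosphoinositide 3-kinase, were at -2.25 and -2.35. RGS1, which shortens chemokine receptor signals, had 352 and 1586 reads and a log2 ratio of -2.29 (-2.46 to -2.13). These 5 genes beyond the first 3 were chosen after their values were seen.

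Among 18 genes of the interferon gamma pathway, which induces CXCL9, CXCL10 and CXCL11, 17 had a read. Of these 17, 10 were called lower and 0 higher, with a median log2 ratio of -1.28. Over all genes with at least 10 reads, 9.59% were called lower and 5.1% higher. IFNG itself had no read in either library. Of the 3 with the most counts, JAK1 was at -0.14, IFNGR2 at -0.02 and WARS at -0.95, none of them called. IDO1, an interferon-induced enzyme of tryptophan breakdown chosen after its values were seen, had 23 reads in steers and 375 in bulls, at a log2 ratio of -4.15 (-4.82 to -3.54).

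Leukocyte marker lists differed in how many of their genes were called lower in steers. The number ran from 0 of 5 for neutrophils and 2 of 7 with a read for B cells to every pan-leukocyte gene. Over all genes tested, 8.13% were called lower. All 8 pan-leukocyte genes were called lower, with log2 ratios from -3.70 to -1.32, a median of -2.27 and a sum of 3641 reads in steers and 12230 in bulls. The T cell and natural killer cell list had 15 of 16 genes called lower and a sum of 251 against 1773 counts. Its genes with at least 10 reads ranged from -5.02 to -0.46. For macrophages and monocytes the sums were 20954 and 44445, with 9 of 12 genes called lower. Of the 12, CSF1R at -0.92 and CD163 at -0.64 had the most counts and were not called. Both are named after their values were seen. Dendritic cell genes summed to 1223 and 2706, with 4 of 7 called lower. Of the 21 chemokine and receptor genes called lower, 13 had a log2 ratio within the range of the pan-leukocyte genes. CXCL2 and CCR6 lay above that range, and 6 genes lay below it, namely CXCL9, CXCL10, CCL5, CCR7, CXCR3 and CXCR6. Of these 6, CCR7, CXCR3 and CXCR6 lay within the range of the T cell and natural killer cell genes. The interval of CCL5 (-7.42 to -4.15) overlapped those of CD52 (-4.35 to -3.11), the lowest pan-leukocyte gene, and PRF1 (-6.35 to -3.95), the lowest of the T cell and natural killer cell list. The intervals of CXCL9 (-12.64 to -4.82) and CXCL10 (upper limit -5.69) lay wholly below that of CD52. Both overlapped that of PRF1. The part of leukocyte content in these differences was not tested.

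Genes of adipocytes, the labelled tissue, were well covered, with 9931 and 7501 reads for CIDEC, 3951 and 7574 for FABP4 and 4513 and 6651 for ADIPOQ. Of the 7 adipocyte genes in the table, 1 was called lower and 1 higher, which says little beside the 8.13% and 4.37% of all genes tested. Skeletal muscle genes were also present, and their 8 genes summed to 29516 reads in steers and 39996 in bulls. The medians of the adipocyte and muscle lists were -0.02 and -0.32.

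**Figure D4:**
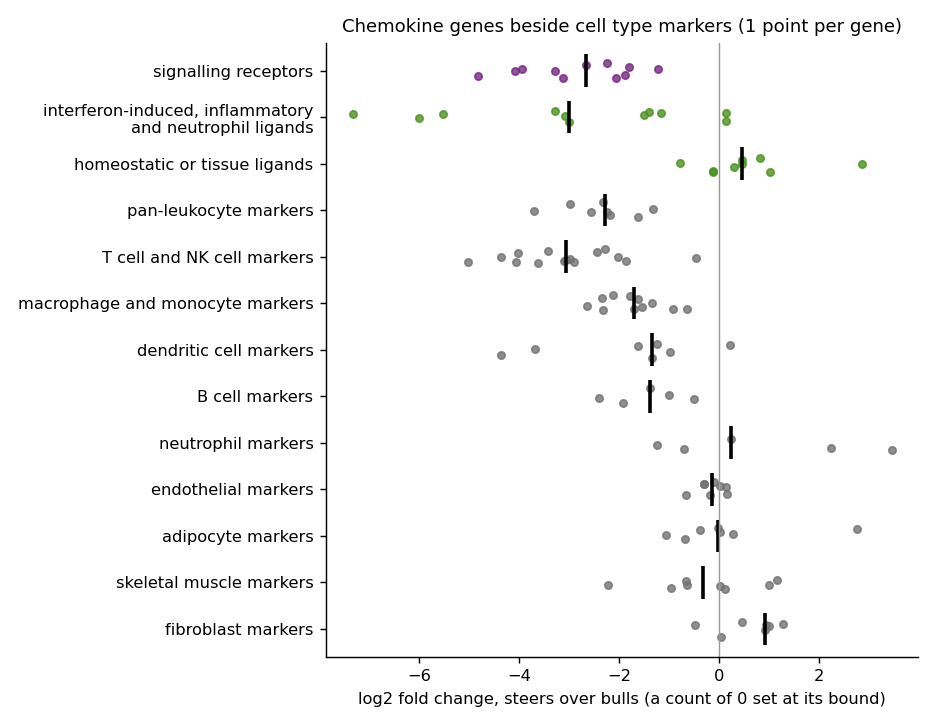
Log2 fold change of steers over bulls for chemokine and receptor genes and for marker lists, with 1 point per gene of at least 10 reads, a count of 0 set at its bound and a black bar at the median. The 11 signalling receptors (median -2.66) lie in the range of the leukocyte lists. Some of the 11 reached 10 reads only through the bulls' library, and the median of all 16 with a read was -1.97. The median of the 9 homeostatic ligands (0.46) lies between those of the endothelial (-0.14) and fibroblast (0.93) lists.

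Without replicates, the calls depend on how much the pools would vary. An edgeR exact test with an assumed biological coefficient of variation of 0.2 called 16 of the genes lower and CXCL13 higher, where 4.29% of all genes were called lower and 2.07% higher. CCL4, CXCL2, XCR1 and CCL22 were no longer called with 0.1. With 0.4, it called CXCL9, CXCL10, CCL5 and CXCR6 lower and none higher, where 0.524% of all genes were called lower and 0.293% higher. Other scalings called 21 or 22 genes lower.

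**Figure D5:**
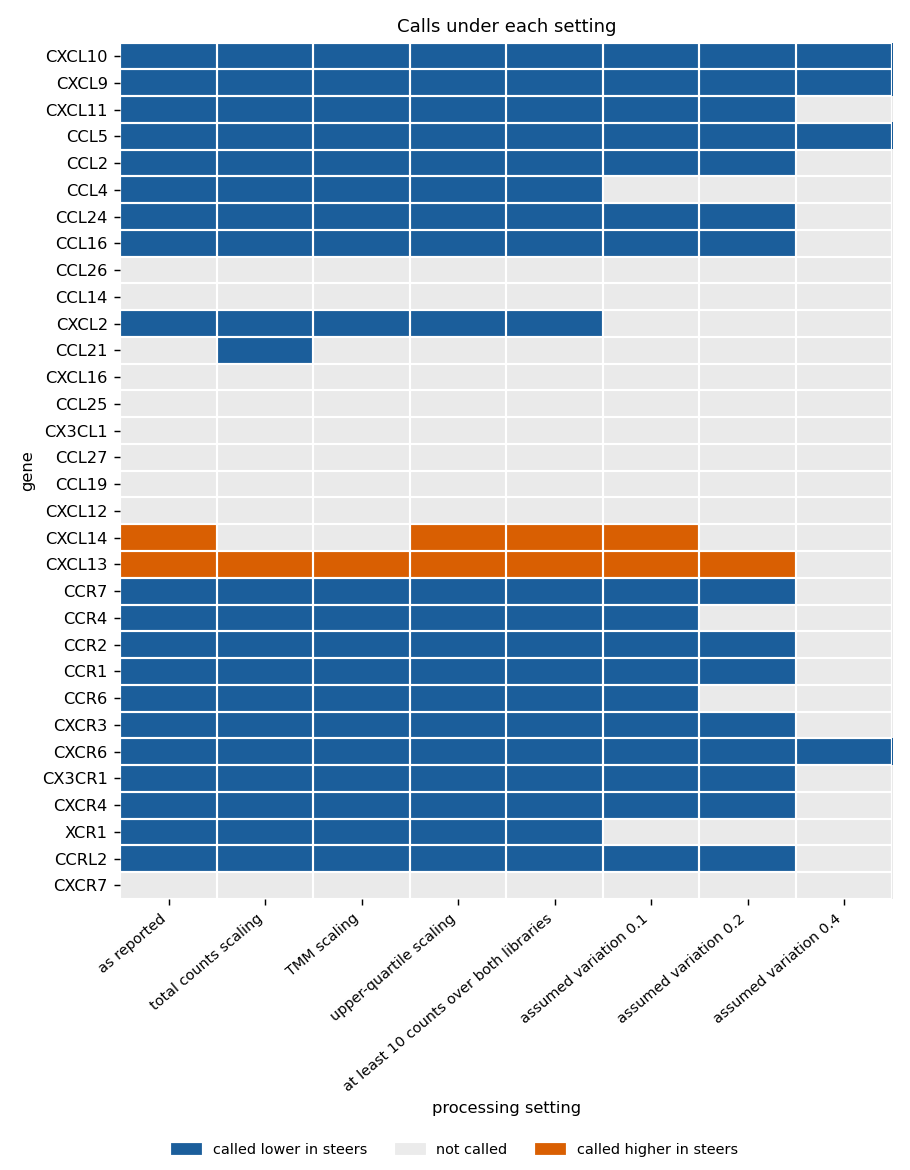
Call of each of 32 genes (rows) as reported and under 7 other settings (columns), coloured by direction. The columns of assumed variation lose calls from left to right, and CXCL9, CXCL10, CCL5 and CXCR6 are called lower in all 8 columns.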

How the data were processed

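The authors trimmed the Ion Proton mRNA reads, dropped those of low quality and used MapSplice to align what was left to a bovine assembly. How reads were then counted, and whether strand was used, is not given in the sources used here, and the submitters' processing notes name BWA and a human genome build. The deposited file holds unnormalised counts, with 12677375 counts in steers and 9868415 in bulls. The miRNA counts, 4 libraries, were not used.

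Libraries were grouped by their titles, CM for steers and IM for bulls. Counts were scaled with median-of-ratios factors and tested with an exact binomial test (two-sided, from the smaller tail; scipy 1.17.1), adjusted by Benjamini-Hochberg over 17752 genes with a read. Medians used a prior of 0.5 counts. A fold against 0 is a bound against 3 counts in that library. The test was checked on simulated data. Those data held counting error only, so the check does not cover variation between pools. Alternatives were other scalings, a minimum of 10 counts, no fold threshold, a prior of 5 counts, and edgeR 4.0.16 exact tests with assumed coefficients of variation of 0.1, 0.2 and 0.4.

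Of the 53 symbols, 50 are current and 3 are older symbols in RefSeq (assembly ARS-UCD2.0), from which only symbols and gene order were used. Genes with at least 10 reads are named with values, except where a result is not reported here, and counts over the set include every member. Outside the set, the 3 genes with the most counts are named for the signal transduction, interferon gamma, fibroblast and adipocyte lists. Other genes are marked as chosen after their values were seen or are named where a result turns on them. The members and all lists were chosen with earlier results of these data known.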

Additional observations from a re-analysis of the deposited data

How the results depend on the processing

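No paired analysis was possible because each group has 1 mRNA library, and for the same reason no library could be left out. Over the 33 genes with at least 10 reads and the 7 other settings tried for each, 198 values kept their direction and their side of the threshold, 30 lost the call and 1 gained it. With an assumed coefficient of variation of 0.4, 4 chemokine or receptor genes were called lower and 0 higher, compared with 21 and 3 as reported. In the same setting 0 genes of signal transduction were called lower instead of 14, 1 of the interferon gamma pathway instead of 10, and 0 of the chemokine-related genes outside the symbol rule instead of 2. With 0.2, 1 chemokine gene was called higher, and 1 of the chemokine-related genes lower. Without the fold threshold, 5 of the 45 genes with a read were called higher, where 19.9% of all genes were, and 23 lower, where 18.3% of all genes were. These settings differ by construction in the spread or fold they ask for. A prior of 5 counts moved the median of the set from -1.71 to -0.80, since many of its genes have few reads. Scaling by total counts shifted the median of all genes to -0.23 and called 11.3% of them lower and 3.04% higher. It turned CCL14 to -0.10 and CCL26 to -0.11, neither of them called. The form of the two-sided p was chosen after seeing the data: a minimum-likelihood form was computed first and was replaced by the smaller tail, which matches the intervals printed. With the first form, 1509 of all genes were called lower and 827 higher, instead of 1444 and 776, and the 21 and 3 chemokine and receptor genes called were the same genes.

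The depth limits the scarce genes most: 12 of the 53 had 1 to 9 reads and 8 had none, so that their differences were not detectable or rest on few reads.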
